A study of Mus musculus with 12 samples.

Results

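The change from 1 h to 4 h of lipopolysaccharide (LPS) was followed in mouse bone marrow macrophages that carry a kinase-dead form of IRAK4 (KD). The 4 arrays of these cells at both LPS times were taken by their labels out of 12 arrays in the series, and every value called a change below is 4 h minus 1 h on the log2 scale. KD LPS 1 h and KD LPS 4 h had 2 arrays each, with LPS at 1 µg/ml. The KD unstimulated group (2 arrays, kept 4 h without LPS) served as the base line, and 6 arrays of wild-type (WT) cells in the same 3 conditions were used to ask where the KD change differed. All 12 cultures grew in macrophage serum-free medium that held fetal calf serum and medium conditioned by L-929 cells, a source of the macrophage growth factor CSF1. The labels give the kinase-dead form as the genotype of the mice, and the sources used here do not give the allele, the background strain or the age of the mice. Unstimulated cultures were kept for 4 h, so LPS 1 h differs both from them and from LPS 4 h in time as well as in exposure. No unstimulated culture of 1 h was analysed here, so in both steps involving LPS 1 h the length of exposure and the time in culture cannot be told apart. The labels call the arrays of a group biological replicates and do not say whether they came from separate animals, so p-values measure the spread between the arrays.

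LPS, a cell wall component of Gram-negative bacteria, binds Toll-like receptor 4, which signals through a pair of adaptor arms. The MyD88 arm recruits the kinases IRAK4 and IRAK1 and leads to NF-κB and MAP kinases, and the TRIF arm leads to IRF3, to type I interferon and, more slowly, to NF-κB. In macrophages, immediate early genes and many feedback inhibitors are transcribed within minutes and have short-lived mRNAs, while many interferon-induced genes depend at least in part on a secreted signal and appear later. IRAK4 acts both as a kinase and as a scaffold, and a kinase-dead form removes the enzymatic activity while the protein can remain.

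The arrays carried 27931 tested probe sets for 12914 named genes. Array medians of the 4 KD LPS arrays lay between a signal of 24.2 and 26.9, and the deposited scale is linear, uncentred and has a trimmed mean of 150 on every array. The log2 ratios of 3' to 5' control probe sets were 1.00 to 1.12 for Gapdh and 2.45 to 2.85 for Actb on these 4 arrays, but 1.35 and 3.04 on KD unstimulated replicate 1. All 12 macrophage markers were tested, and their summed signal was 27767 to 27844 at 1 h and 24230 to 25501 at 4 h. From 1 h to 4 h, 3 of the 12 (Mertk, Fcgr1 and Cd68) were called lower and 0 higher in limma (4 and 0 at an unadjusted p under 0.05). Among all tested genes 4.84% were called lower and 5.82% higher. The calls of Fcgr1 (adjusted p of 0.0509 to 0.183) and Cd68 (0.0808 to 0.258) were lost without any 1 of the 4 KD LPS arrays. Of the stromal markers, 12 of 13 were tested, summing to 10579 to 12589 without LPS, 11903 to 13148 at 1 h and 12918 to 13017 at 4 h, with Lum under the pseudocount on all 4 LPS arrays. Against unstimulated KD cells, 6 of these 12 were called higher at 1 h in limma and 7 at 4 h, with 0 lower. Over all tested genes 3.68% and 6.42% were higher, and the stromal median changes were 0.732 and 0.692. Of the 12, Acta2 was called higher and Thbs2 lower from 1 h to 4 h, and 5 fell into the sustained time course described below, where their part in the result was not tested. Of the other marker lists, 2 of 7 T and NK cell genes, 1 of 5 B cell genes, 4 of 9 neutrophil genes, 1 of 5 dendritic cell genes, 0 of 3 erythroid genes and 2 of 6 mast cell genes were bright enough to be tested, and none of these was called in limma (2 had an unadjusted p under 0.05). Neutrophil markers summed to 2046 to 2503 at 1 h and 1800 to 2068 at 4 h, the other 5 lists to at most 101 on any LPS array. Cd79b was under the pseudocount on all 4 LPS arrays. In bulk RNA, fewer cells of a type and less RNA per cell cannot be told apart. Irak4 itself was not analysed here, and a kinase-dead mutation need not alter the transcript level, so that gene gave no check of the strain labels.

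From 1 h to 4 h of LPS, KD macrophages lost immediate early transcription factors such as Fosb and Egr1, the phosphatase Dusp5 and the cytokine Il10. In the same interval chemokines such as Cxcl10, guanylate-binding proteins, part of the interferon-induced genes and effector enzymes rose. A total of 1376 genes (10.7% of those tested) changed at an adjusted p under 0.05 in limma: 751 (5.82%) were higher at 4 h and 625 (4.84%) lower. Of these, 264 rose and 171 fell by at least 1 on the log2 scale. The 1 h and 4 h arrays stood apart in all 1376 called genes. Where arrays of these 2 times are said below not to overlap, this adds nothing to the call. Counted by probe set, 2354 (8.43%) were called, 1271 higher (4.55%) and 1083 lower (3.88%). Over every tested probe set the median change was -0.0457, or -0.0136 with quantile-normalized values. Where a gene had several probe sets, the brightest was used, and of the genes with values below only Maf had probe sets called in opposite directions (1 higher and 1 lower of 6). The other probe sets were not all called for Tnfaip3, E2f2, Nt5e, Fosl2, Jun, Pde4b, Csf1, Sod2, Fcgr2b, Mef2c, Dtl, Dusp10, Zfp36l1, Zfp703, Cmpk2, Nfkb2, Traf1, Ptges, Irak3, Slco3a1, Slc7a2, Peli1 and Ccnd1. With a single array left out of either KD LPS group, the probe-set count fell to between 1218 and 1489, the lowest being without KD LPS 4 h replicate 1. It was 960 with a variance prior that does not follow the signal level.

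**Figure D1:**
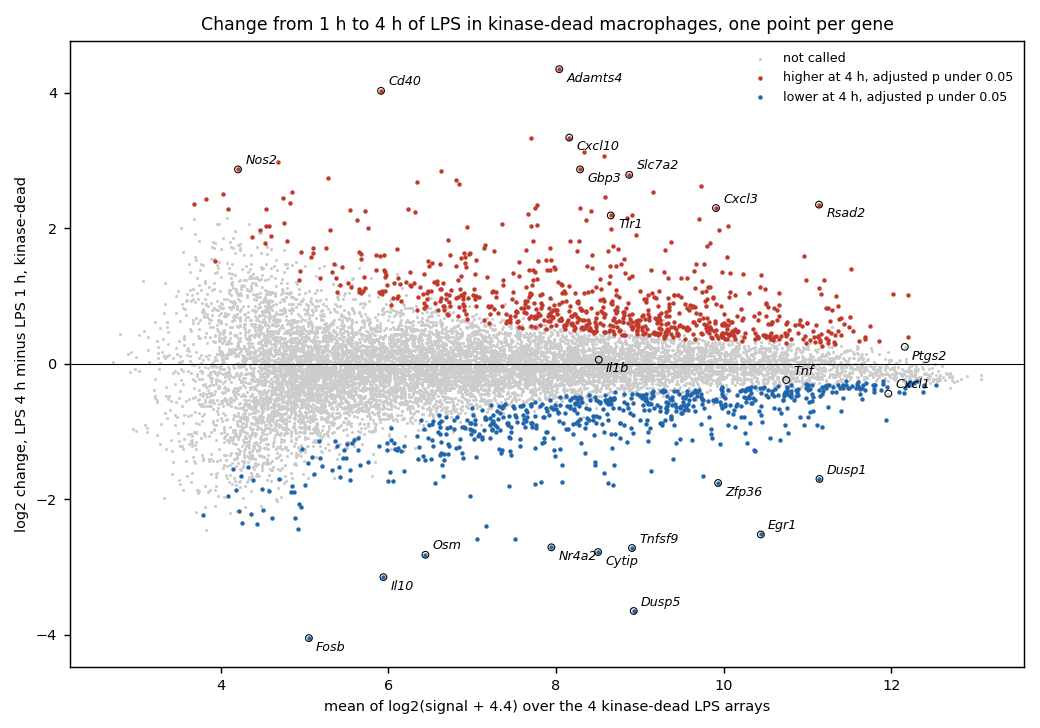
Mean log2(signal + 4.4) over the 4 kinase-dead LPS arrays (x axis) against the log2 change from 1 h to 4 h of LPS (y axis), 1 point per tested gene. Red and blue points are the 751 genes called higher and the 625 called lower; Fosb and Dusp5 are lowest, Adamts4 and Cd40 highest, and Tnf, Il1b, Cxcl1 and Ptgs2 (rings without colour) lie closer to 0.

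To describe decay, persistence and late appearance, genes were sorted by their calls in 3 comparisons among the 6 KD arrays, which share arrays, so that the class sizes are a description. At 1 h, 864 genes differed from unstimulated KD cells (6.69%), 475 higher (3.68%) and 389 lower (3.01%). At 4 h, 1632 differed (12.6%), 829 higher (6.42%) and 803 lower (6.22%). Of the 475 genes raised at 1 h, 121 were lower again at 4 h (transient), 84 rose further (rising), and 162 were raised at both times with the 95% interval of the 4 h minus 1 h change inside -1 to 1 (sustained). The other 108 had no call from 1 h to 4 h and too wide an interval, or no call at 4 h. A further 311 genes were not called at 1 h and rose later (late), and 310 without a call at 1 h were lower at 4 h than at both earlier conditions (late fall). There were 158 genes that dipped at 1 h and rose from 1 h to 4 h (dip) and 11 that fell at both steps (continued fall). A further 381 called genes fell into no class.

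**Figure D2:**
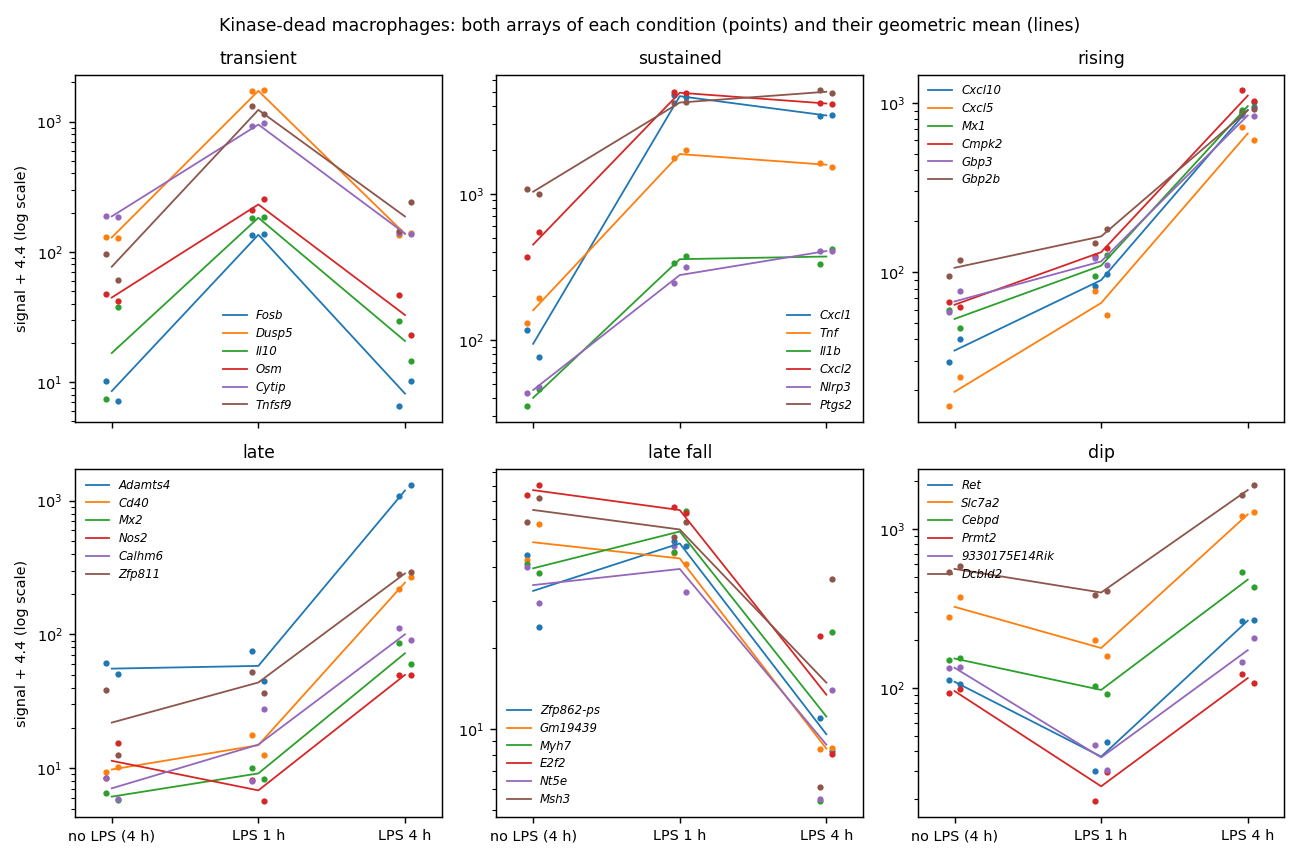
Signal plus 4.4 on a log scale (y axis) in kinase-dead macrophages without LPS (4 h of culture), at 1 h and at 4 h of LPS (x axis), for 6 genes of each of 6 time courses. Points are the single arrays and lines join geometric means; Fosb and Dusp5 are back at their unstimulated level at 4 h, whereas Cxcl2 and Ptgs2 stay near their 1 h level and Cxcl10 and Mx1 climb at both steps.

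Among the transcripts that decayed most were transcription factors of the immediate early response, the MAP kinase phosphatase Dusp5 and a few cytokines. Fosb, a subunit of the AP-1 transcription factor, had signals of 5.8 and 2.7 without LPS, 129.5 and 132 at 1 h and 2.1 and 5.8 at 4 h. Both 1 h arrays stood far above all 4 others, and the change from 1 h to 4 h was -4.05 ± 0.63, adjusted p = 0.000262 (SE, 2 arrays a group, as below), a 16.6-fold fall on the offset scale. Dusp5, a nuclear phosphatase that inactivates ERK, went from 125 and 124 through 1704 and 1735 to 131 and 135. Its 1 h arrays were alone in being high, the change was -3.65 ± 0.15, adjusted p = 2.14e-11, and 0.533% of the 1 h rise was left at 4 h. Il10, an anti-inflammatory cytokine, was at 3 and 33.2, then 176 and 180.2, then 25.2 and 10, so both 1 h arrays lay above all others (-3.15 ± 0.51, adjusted p = 0.000394). Osm, which encodes oncostatin M, followed the same course, with 205 and 250.3 at 1 h and 42.3 and 18.5 at 4 h (-2.82 ± 0.33, adjusted p = 1.29e-05). Cytip, a cytohesin-binding scaffold protein of leukocytes, went from 183 and 182 to 913 and 979 and back to 134 and 134, below the unstimulated arrays in value (-2.78 ± 0.15, adjusted p = 1.15e-09), and all 3 of its tested probe sets were called lower.

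The immediate early transcription factors as a group had 26 members tested, of which 14 were called lower from 1 h to 4 h and 1 higher. Among all tested genes 4.84% were called lower and 5.82% higher. The median change was -0.688 against -0.0507 over all genes. The orphan nuclear receptors Nr4a2 and Nr4a1 fell, with changes of -2.71 ± 0.22 and -2.44 ± 0.44. Nr4a2 stood at 467 and 839.5 at 1 h and 99 and 85 at 4 h, and 2 of its 5 tested probe sets were called. The zinc-finger factor Egr1 went from 3371 and 3285 at 1 h to 521 and 639 at 4 h (-2.52 ± 0.16, adjusted p = 5.48e-09), and Egr3 from 362 and 292 to 65.9 and 51.6 (-2.39 ± 0.22). Csrnp1, a nuclear protein with transactivating activity, dropped from 297 and 348 to 45.8 and 54.6 (-2.58 ± 0.20), leaving 1.64% of its 1 h rise. Among other AP-1 subunits, Fosl2 fell from 3457 and 2932 to 1596 and 1754 (-0.93 ± 0.10) and Jun from 1949 and 1956 to 1457 and 1474 (-0.41 ± 0.09). Fosl1 kept its rise, with 111 and 126 at 1 h and 126 and 92.9 at 4 h and a 95% interval of -0.61 to 0.37. Atf3, a repressor of the ATF family, was the member that rose: its signals of 1252 and 1149 at 1 h lay under the 2047 and 2067 of unstimulated cells and returned to 1738 and 1882 at 4 h (0.59 ± 0.10, adjusted p = 0.000799).

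Feedback inhibitors fell in part. Among 17 MAP kinase phosphatases and Sprouty and Spred inhibitors, 7 were called lower and 1 higher from 1 h to 4 h. Over all tested genes 4.84% were lower and 5.82% higher, so the count of 1 is near that share. The calls of Dusp3, Dusp7, Dusp8 and Spry2, and of Spred1, which rose, were lost in some fits with 1 array left out. Of the 7, 4 had risen at 1 h (transient) and 3 were in the late fall class, with no called rise at 1 h. Dusp1, which inactivates p38 and JNK, fell from 4253 and 3890.2 to 1171 and 1335 (-1.70 ± 0.18, adjusted p = 3.45e-06), under the 2193 and 1605 of unstimulated cells. Dusp10 went from 304 and 239 to 97.6 and 118 (-1.29 ± 0.20), whereas Dusp4 stayed at 704 and 709 after 741 and 802, with an interval of -0.37 to 0.11. Of 18 tested regulators of cytokine mRNA decay, 4 fell and 4 rose. Zfp36 (tristetraprolin, which binds AU-rich elements and promotes mRNA decay) fell from 1742 and 1849.6 to 534 and 520.3 (-1.76 ± 0.11, adjusted p = 7.44e-09) and remained above its unstimulated 273 and 268. Its relative Zfp36l1 fell from 1888 and 1844 to 855 and 795 (-1.17 ± 0.11). Zc3h12c, of the regnase family of RNases, moved the other way, from 116 and 74.1 at 1 h to 507 and 474 at 4 h (2.35 ± 0.20, adjusted p = 2.75e-07). Both 4 h arrays lay above both 1 h arrays, and both tested probe sets rose.

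Over the 121 transient genes, a median of 1.64% of the 1 h rise in signal was left at 4 h. At 4 h, 92 of them were not called against unstimulated cells, 20 were still higher and 9 were lower. Tnfsf9, the ligand of 4-1BB, was among the 20, at 92.6 and 56.4 without LPS, 1317 and 1142 at 1 h and 140.4 and 237 at 4 h, so 9.87% of the rise was left (-2.72 ± 0.24, adjusted p = 2.62e-07). Dtl, a substrate receptor of a cullin ubiquitin ligase that acts in DNA replication, went from 124 and 155 to 449 and 435 and then to 62 and 78.9 (-2.59 ± 0.30, adjusted p = 1.07e-05). Gpr65, a proton-sensing receptor that raises cyclic AMP, stood at 224 and 264 at 1 h and 66.9 and 52.9 at 4 h (-1.95 ± 0.27). Pde4b, a phosphodiesterase that breaks down cyclic AMP, fell from 1734 and 1706 to 1006 and 876 (-0.87 ± 0.11) but stayed far above its unstimulated 129.7 and 138. The sorting used calls in KD alone, though the spread behind them was estimated over all 12 arrays, and with only the 6 KD arrays 96 genes were transient. In WT cells, 86 of the 121 were called lower from 1 h to 4 h (71.1%), against 11.3% of all tested genes.

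Another set of early genes stayed near its 1 h level. Cxcl1, a neutrophil-attracting chemokine, rose from 112 and 71.6 without LPS to 4733 and 4555 at 1 h and was at 3419 and 3433 at 4 h. Both 4 h arrays were below both 1 h arrays, but the change of -0.44 ± 0.14, adjusted p = 0.0528 missed the threshold, with a 95% interval of -0.72 to -0.15. Of its 3 probe sets, 1 was called. The change passed when either KD unstimulated array was left out, with an adjusted p of 0.00184 without replicate 1 and 0.00172 without replicate 2. The related chemokine Cxcl2 stood at 366 and 541, 4960.0 and 4844 and 4187 and 4088 in turn (-0.24 ± 0.13, interval -0.52 to 0.03). Tnf, the tumour necrosis factor, was at 127 and 190.1, 1748 and 1986 and 1625 and 1526, so 82.9% of its rise was left (-0.24 ± 0.14, interval -0.54 to 0.06). Il1b, the precursor of interleukin-1β, was at 30.8 and 41.6, 334 and 372 and 328 and 412, with overlapping 1 h and 4 h arrays (0.06 ± 0.18, interval -0.33 to 0.45).

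Nlrp3, the sensor of an inflammasome, was at 239.5 and 312 at 1 h and 402 and 400.1 at 4 h (0.55 ± 0.20, adjusted p = 0.118). Ptgs2, the inducible cyclooxygenase of prostaglandin synthesis, held 4152 and 4244 and 5089.8 and 4868 over an unstimulated 1074 and 985 (0.25 ± 0.09), though the other of its 2 probe sets was called. Ccrl2, an atypical chemokine receptor, was at 697 and 734 and 665 and 649, with an interval of -0.44 to 0.20. The IκB family genes Nfkbia (IκBα) and Nfkbiz (an inducible nuclear IκB protein) were also in this class. Their signals were 6529 and 6553 and 2410.4 and 2269.6 at 1 h and 5501 and 5448 and 2108 and 2056 at 4 h. However, 4 of 5 probe sets of Nfkbia and 1 of 3 of Nfkbiz were called lower. Irf1, a transcription factor of interferon responses, was at 135 and 172 without LPS, 509 and 504 at 1 h and 417 and 623 at 4 h (0.01 ± 0.16). Over the 162 sustained genes the median change was 0.01, and in WT cells 47 of them were called higher from 1 h to 4 h (29%, against 8.04% of all genes) and 9 lower. The stromal markers Cxcl12, Col1a2, Pdgfra, Col6a1 and Col6a2 were in this class too, and Col6a1 for example had 327 and 239.6 without LPS, 812 and 638 at 1 h and 819 and 823 at 4 h.

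Late appearance was led by Adamts4 and Cd40. Adamts4, a protease that cleaves aggrecan and other proteoglycans, was at 56.5 and 46.2 without LPS, 70.5 and 40.8 at 1 h and 1076 and 1302 at 4 h. Only the 4 h arrays were high, the change was 4.35 ± 0.24, adjusted p = 1.23e-09, a 20.4-fold rise on the offset scale, and both tested probe sets were called. Cd40, a co-stimulatory receptor for T cell help, was at 5 and 5.8, 13.3 and 8.1 and 216 and 266 (4.03 ± 0.31, adjusted p = 5.38e-08), and its 3 tested probe sets agreed in direction and call. Nos2, the inducible nitric oxide synthase, was listed at 3.8 and 1.3 at 1 h and 45.5 and 45.4 at 4 h (2.87 ± 0.65, adjusted p = 0.00801). It was near the pseudocount before 4 h and lost its call without KD LPS 1 h replicate 2 (adjusted p = 0.0559), 4 h replicate 1 (0.0771) or 4 h replicate 2 (0.0701). Fcgr2b, the inhibitory Fc receptor, was at 28.4 and 26.7 and then 192 and 210.5 (2.68 ± 0.29, adjusted p = 5.22e-06), and the organic anion transporter Slco3a1 at 36.4 and 47.1 and then 302 and 267 (2.65 ± 0.24). Tlr1, a co-receptor of Toll-like receptor 2, rose from 196 and 174 to 839 and 869 (2.19 ± 0.13), and the ubiquitin ligase Peli1 from 319 and 377 to 1178 and 1061 (1.68 ± 0.12). Irak3, an inactive IRAK relative that restrains Toll-like receptor signalling, appeared late as well, with 420.0 and 543 without LPS, 579.8 and 671 at 1 h and 1615 and 1599 at 4 h (1.36 ± 0.13, adjusted p = 9.44e-07).

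Among the ligands, chemokines rose further after 1 h. Of 23 tested, 9 were called higher and 0 lower in limma (2 were lower at an unadjusted p under 0.05), with a median change of 1.002. Among all tested genes 5.82% were called higher and 4.84% lower. Cxcl10, which attracts T cells and is induced by interferon, was at 25 and 35.8 without LPS, 77.9 and 93.3 at 1 h and 866 and 946 at 4 h. Its 3 conditions did not overlap, and the last step was 3.34 ± 0.20, adjusted p = 2.09e-09. Cxcl5, a neutrophil attractant, climbed from 73.2 and 51.2 to 718 and 598 (3.33 ± 0.21, adjusted p = 6.59e-09) and Cxcl3 from 398 and 460.3 to 2199.8 and 2059.8 (2.30 ± 0.16). The monocyte attractants Ccl2 and Ccl7 went from 763 and 744 and 180.4 and 122 at 1 h to 2058 and 1739.5 and 537 and 534 at 4 h. Ccl3 and Ccl4 rose by 1.02 ± 0.08 and 1.57 ± 0.13, and Ccl5 by 1.00 ± 0.09. Of 24 tested cytokines and growth factors, 5 rose and 3 fell. Il15, which sustains natural killer and memory T cells, went from 92.2 and 124 to 357 and 349.6 (1.68 ± 0.20, adjusted p = 1.25e-05) and Csf1 from 239.6 and 176 to 570.4 and 543 (1.42 ± 0.19).

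Il6, a cytokine of the acute-phase response, was at 7.7 and 1.2 without LPS, 41.4 and 37.9 at 1 h and 106 and 88.6 at 4 h (1.20 ± 0.35, adjusted p = 0.0403). The 4 h arrays were above the 1 h arrays, but the call was lost without any 1 of the 4 KD LPS arrays (adjusted p of 0.11 to 0.243) and without either WT LPS 4 h array (0.0962 and 0.0964).

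Interferon-induced genes were split between further rise and persistence. Of 39 tested antiviral members, 16 were called higher and 2 lower from 1 h to 4 h, with a median of 0.16, and 13 were sorted as rising, 10 as sustained and 2 as late. Already at 1 h, 24 of the 39 were called higher than in unstimulated KD cells and 1 lower. Over all tested genes 3.68% were higher and 3.01% lower at 1 h, and 5.82% rose and 4.84% fell from 1 h to 4 h. Mx1, a dynamin-like GTPase that blocks viruses, was at 55.7 and 42.1 without LPS, 89.9 and 122 at 1 h and 898 and 1008 at 4 h (3.13 ± 0.22, adjusted p = 1.68e-08). Cmpk2, a mitochondrial nucleotide kinase, followed with 61.9 and 57.6, 119.6 and 134 and 1182 and 1022 (3.07 ± 0.20, adjusted p = 7.86e-09). Rsad2 (viperin), next to Cmpk2 in the genome, was at 410.1 and 353, 968 and 1020.2 and 5040.4 and 5106 (2.35 ± 0.11, adjusted p = 8.18e-11), with all 3 probe sets called. In these 3 genes the arrays of the 3 conditions did not overlap, which for 1 h against 4 h held in every called gene. Ifit1, Ifit2 and Ifit3, which bind viral RNA or one another, rose by 2.03 ± 0.14, 1.80 ± 0.14 and 1.06 ± 0.18. The RNA sensor Ifih1 (MDA5) went from 468 and 521 to 1252 and 1319 (1.37 ± 0.12). The sustained members Rtp4, Xaf1, Oasl2 and Slfn2 had changes of -0.45 ± 0.15, -0.39 ± 0.12, -0.14 ± 0.15 and 0.16 ± 0.12, none of them called.

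The interferon-induced GTPases, which act on the vacuoles of intracellular microbes, had 9 tested members, of which 7 were called higher and 0 lower in limma (0 also at an unadjusted p under 0.05), with a median of 1.323. Igtp and Gbp8, the others, changed by 0.49 and 0.13. Gbp3 was at 53.4 and 73.4, 117 and 106 and 839.6 and 838 (2.87 ± 0.16, adjusted p = 1.44e-09), and Gbp2 at 82.6 and 89.3, 129.9 and 144 and 637 and 746 (2.30 ± 0.15). Probe sets for closely related genes (Gbp, Ifit, Mx) can take up signal from more than 1 family member, so values of single members are uncertain. Ifnb1, which encodes interferon-β, had 29.1 and 3.1 without LPS, 8.9 and 28 at 1 h and 22.3 and 26.9 at 4 h (0.48 ± 0.68, adjusted p = 0.765). Of 20 tested interferons, receptors and pathway factors, 2 rose and 1 fell. These counts are near the shares over all tested genes, 5.82% higher and 4.84% lower. Jak2, a kinase of cytokine receptors, rose from 1323 and 1306 to 2905 and 3328 (1.24 ± 0.09, adjusted p = 4.04e-08), and Irf9, the DNA-binding part of the interferon-activated factor ISGF3, fell from 883 and 977 to 599.6 and 589 (-0.64 ± 0.12, adjusted p = 0.00202).

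Effector enzymes and NF-κB feedback genes rose too. Of 22 tested inflammatory enzymes and effectors, 15 rose and 0 fell in limma (1 was lower at an unadjusted p under 0.05), with a median of 0.938. Among all tested genes 5.82% rose and 4.84% fell. Acod1, which makes itaconate, went from 2971 and 2813 to 5695 and 6153 (1.03 ± 0.09, adjusted p = 2.58e-07), and Sod2, the mitochondrial superoxide dismutase, from 1542 and 1654 to 3122 and 3409.8 (1.03 ± 0.09). Ch25h, the cholesterol 25-hydroxylase, rose from 131 and 150.5 to 422 and 402 (1.53 ± 0.17), and Clec4e, a C-type lectin receptor, from 1768 and 1820.2 to 4630.0 and 4859.9 (1.40 ± 0.09). Ptges, the prostaglandin E synthase downstream of Ptgs2, climbed from 177 and 155 to 525 and 551 (1.67 ± 0.16, adjusted p = 9.84e-07). Of 20 tested NF-κB subunits, inhibitors and ubiquitin feedback genes, 9 rose and 2 fell. Nfkb2, the p100 precursor, went from 85.5 and 95.4 to 385 and 488 (2.21 ± 0.25, adjusted p = 9.30e-06) and Traf1, an adaptor of tumour necrosis factor receptors, from 177 and 272 to 1086 and 971 (2.20 ± 0.22). The members that fell were Nfkbid, from 153 and 171 to 68 and 49 (-1.42 ± 0.25), and Tnfaip3 (A20), from 1059 and 1109 to 649 and 732 (-0.65 ± 0.16). The Tnfaip3 call was lost without KD LPS 1 h replicate 1 (adjusted p = 0.0663), 1 h replicate 2 (0.111) or 4 h replicate 1 (0.148).

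Of the 84 rising genes, 75 were also called higher from 1 h to 4 h in WT cells (89.3%), and of the 311 late genes 265 were (85.2%), against 8.04% of all tested genes.

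Promoters of genes from the extremes are shown because these genes decayed or appeared together. The sequences are RefSeq windows (build GRCm38.p6) of the 250 bases before the start of transcription, 5′ to 3′ on the strand of the gene, with motif matches in capitals. The search covered those bases and the 50 after the start, on both strands, for CRE (TGACGTCA), AP-1 (TGANTCA), kappaB (GGG and CC with any 5 bases between them), the ISRE core (GAAA and GAAA with any 2 bases between them) and the CArG box of serum response factor. Overlapping matches were joined. CRE, the cyclic AMP response element, and the CArG box are known from promoters of immediate early genes, and the ISRE from those of interferon-induced genes. Fosb and Dusp5 decayed most among genes with a window, Calhm6 appeared late, and Cxcl10, added after its values were seen, rose at both steps.
Fosb (chr7:19310046-19310295, minus strand): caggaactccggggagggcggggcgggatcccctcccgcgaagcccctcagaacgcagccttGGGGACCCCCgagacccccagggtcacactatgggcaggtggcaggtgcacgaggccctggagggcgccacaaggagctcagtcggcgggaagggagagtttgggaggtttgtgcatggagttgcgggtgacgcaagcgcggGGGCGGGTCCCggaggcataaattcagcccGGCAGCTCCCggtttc
Dusp5 (chr19:53528895-53529144, plus strand): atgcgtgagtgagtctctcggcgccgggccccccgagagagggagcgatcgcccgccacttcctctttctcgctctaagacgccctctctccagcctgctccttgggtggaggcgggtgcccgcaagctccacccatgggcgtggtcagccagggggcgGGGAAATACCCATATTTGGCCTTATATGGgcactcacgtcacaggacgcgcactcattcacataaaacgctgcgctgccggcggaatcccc
Calhm6 (chr10:34127973-34128222, minus strand): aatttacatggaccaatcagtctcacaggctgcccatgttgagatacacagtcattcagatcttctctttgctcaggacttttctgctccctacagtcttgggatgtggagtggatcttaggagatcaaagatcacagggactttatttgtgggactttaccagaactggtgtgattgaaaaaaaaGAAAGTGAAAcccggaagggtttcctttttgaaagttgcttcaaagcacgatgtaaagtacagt
Cxcl10 (chr5:92348890-92349139, minus strand): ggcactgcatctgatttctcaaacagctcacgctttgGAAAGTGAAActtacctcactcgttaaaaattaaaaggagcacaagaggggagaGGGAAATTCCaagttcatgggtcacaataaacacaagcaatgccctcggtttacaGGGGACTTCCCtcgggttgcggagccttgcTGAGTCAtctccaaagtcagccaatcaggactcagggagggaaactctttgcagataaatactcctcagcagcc
In the Dusp5 window, matches to the CArG box start 82 and 72 bases before the start site, next to a kappaB match. Fosb had matches to the loose kappaB pattern only. The ISRE core was found 64 bases upstream in Calhm6 and 213 bases upstream in Cxcl10, where kappaB and AP-1 matches followed. The window of Zfp811, the other late gene chosen by the rule, had a CArG match after the start site and is not printed.

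A window was available for 10376 of the 12914 tested genes. The ISRE core was present in 13 of 67 rising genes with a window (19.4%) and in 13 of 252 late genes (5.16%). Of the other classes, 8.08% of transient and 7.81% of sustained genes held it, against 3.78% of all tested genes and 3.44% of all 32851 windows taken singly. AP-1 matches were in 19.4% of the rising, 13.3% of the sustained, 12.1% of the transient, 11.6% of the late fall and 6.75% of the late genes, against 6.75% of all. CRE matches were in 6.06% of the 99 transient genes with a window and in 3.41% of all. The CArG box was in 2.02% of the transient, 4.37% of the late and 1.63% of all genes. The kappaB pattern was in 71.1% of all genes and in 68.7% of the transient and 71.6% of the rising genes. Its share was 74.6% in the late, 75.8% in the sustained, 75.1% in the late fall and 76.8% in the dip genes. These shares are descriptions of letters in a short window; a match is not a bound site.

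Calhm6, a calcium homeostasis modulator family member, was dim before it appeared, at 3.7 and 23.5 at 1 h and 107 and 85.8 at 4 h (2.74 ± 0.59, adjusted p = 0.00527). Its arrays at 1 h were far apart, and the call was lost without KD LPS 1 h replicate 1 (change 1.84, adjusted p = 0.0965) or 4 h replicate 1 (adjusted p = 0.0703).

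The late fall class held receptors and signalling regulators whose fall was called after 1 h but not at 1 h. Rgs2, which limits G-protein signalling, was at 2015 and 1878 without LPS, 1442 and 1614 at 1 h and 506 and 457 at 4 h (-1.66 ± 0.10, adjusted p = 5.48e-09), with 3 of 3 probe sets called. Its 1 h arrays already lay below the unstimulated arrays, by -0.35 at an adjusted p of 0.0588, which missed the threshold. Inpp5d, the phosphatase SHIP1 that opposes PI3 kinase, went from 999 and 1066 to 436 and 478 (-1.17 ± 0.12, adjusted p = 1.36e-06), and Tlr13, a receptor for bacterial RNA, from 1296 and 1415 to 664 and 592 (-1.10 ± 0.10). Ccnd1 (cyclin D1) was level at 2043 and 2103 and 2138 and 2002 and then fell to 851 and 836 (-1.29 ± 0.10, adjusted p = 9.14e-08). Of 35 tested cell cycle genes, 7 fell and 1 rose from 1 h to 4 h. Over all tested genes 4.84% fell and 5.82% rose. Of the 7 that fell, 3 were in the late fall class, 2 in the transient class and 2 in no class. The calls of Cdc6, Pcna, Mcm4, Mcm6 and Cdc25b were lost in some fits with 1 array left out. So was that of Cdkn1a, which rose. The phagocytic receptor Mertk fell from 115 and 129 to 40.8 and 34.4 (-1.59 ± 0.24, adjusted p = 0.000196), and the transcription factor Mef2c from 675 and 709.6 to 232 and 251 (-1.50 ± 0.13). Both belong to the list of 28 tested macrophage identity genes, of which 4 fell and 1 rose, with Cd68 and Fcgr1, whose calls were lost without any 1 KD LPS array, as the other members that fell. Csf1r, Adgre1 and Spi1 were not called, with changes of -0.20, 0.15 and 0.21.

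The lowest log2 values of the late fall class belonged to dim genes. Zfp862-ps, Gm19439, Myh7, E2f2, Nt5e and Msh3 had 1 h signals between 27.9 and 62.2 and 4 h signals between 1.0 and 31.8. Each lost its call without at least 2 of the 4 KD LPS arrays, at adjusted p of 0.0526 to 0.054 for Zfp862-ps, 0.052 to 0.0766 for Gm19439, 0.0684 to 0.141 for E2f2 and 0.138 to 0.184 for Nt5e. Msh3 went from -1.89 to -0.61 (adjusted p = 0.578) without KD LPS 4 h replicate 1. Myh7 went from -2.28 to -1.24 (adjusted p = 0.189) without the same array and had an adjusted p of 0.118 without KD LPS 1 h replicate 2. In WT cells, 269 of the 310 late fall genes were called lower (86.8%, against 11.3% of all).

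A dip at 1 h followed by a rise from 1 h to 4 h was seen in 158 genes. The class sets no condition on 4 h against unstimulated cells, so it does not mean a return to base line. Slc7a2, a cationic amino acid transporter that supplies arginine, was at 276 and 369 without LPS, 196 and 154 at 1 h and 1193 and 1265 at 4 h (2.79 ± 0.15, adjusted p = 7.21e-10). Ret, a receptor tyrosine kinase, was at 108 and 102, 25.7 and 41.2 and 257 and 263 (2.84 ± 0.25, adjusted p = 2.58e-07), though 1 of its 2 tested probe sets was called. Cebpd, a C/EBP transcription factor, was at 147 and 151, 99.1 and 86.9 and 528 and 428 (2.30 ± 0.18, adjusted p = 5.38e-08). In each of these 3 genes the 1 h arrays were the lowest of the 6 and the 4 h arrays the highest. Asns (asparagine synthetase) dipped from 1201 and 1111 to 750.1 and 765 and rose to 1433 and 1559 (0.98 ± 0.10). The 11 genes that fell at both steps included Lpar6, a lysophosphatidic acid receptor, at 905 and 899, 599.7 and 521 and 330.0 and 366 (-0.68 ± 0.13, adjusted p = 0.00241), and Tmem86a at 1129 and 1160.5, 782 and 939.5 and 481 and 522 (-0.77 ± 0.12).

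In the remaining lists, calls were fewer or split; over all tested genes 5.82% were called higher and 4.84% lower. Of 23 tested genes of antigen presentation and co-stimulation, 6 rose and 1 fell. Apart from Cd40 these included the co-stimulatory ligand Icosl, from 253 and 251 to 892 and 1022 (1.90 ± 0.16), and Cd69, from 461 and 527 to 2086 and 1819 (1.97 ± 0.15). Of 32 proteases, adhesion and coagulation genes, 11 rose and 3 fell; Icam1, the ligand of β2 integrins, went from 1162 and 1109.8 to 3412 and 3465 (1.59 ± 0.11, adjusted p = 1.11e-08). Of 29 G-protein-coupled receptors and cyclic AMP genes, 8 fell and 5 rose. Among 26 Toll-like receptors and adaptors, 7 rose and 1 fell, while Myd88 and Ticam1, the adaptors of both arms, changed by 0.43 and 0.00 without a call. Of 28 genes of sterol synthesis and lipid handling, 7 fell and 3 rose, with Pparg going from 179 and 166 to 68.9 and 72.6 (-1.23 ± 0.25). Among 18 BCL2 family and death regulators, 3 rose and 1 fell; the death receptor Fas went from 239.8 and 191 to 977 and 959 (2.15 ± 0.14, adjusted p = 9.38e-09). Inhibitors of cytokine and Toll-like receptor signalling had 1 call in each direction among 13. Glycolysis and hypoxia genes had 1 call in each direction among 24. These counts of 1 are near the shares over all genes. Among 20 unfolded protein response genes, 3 were higher and 1 lower. None of 19 ribosomal protein genes was called in limma (3 were lower at an unadjusted p under 0.05), and their changes lay between -0.26 and 0.65.

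**Figure D3:**
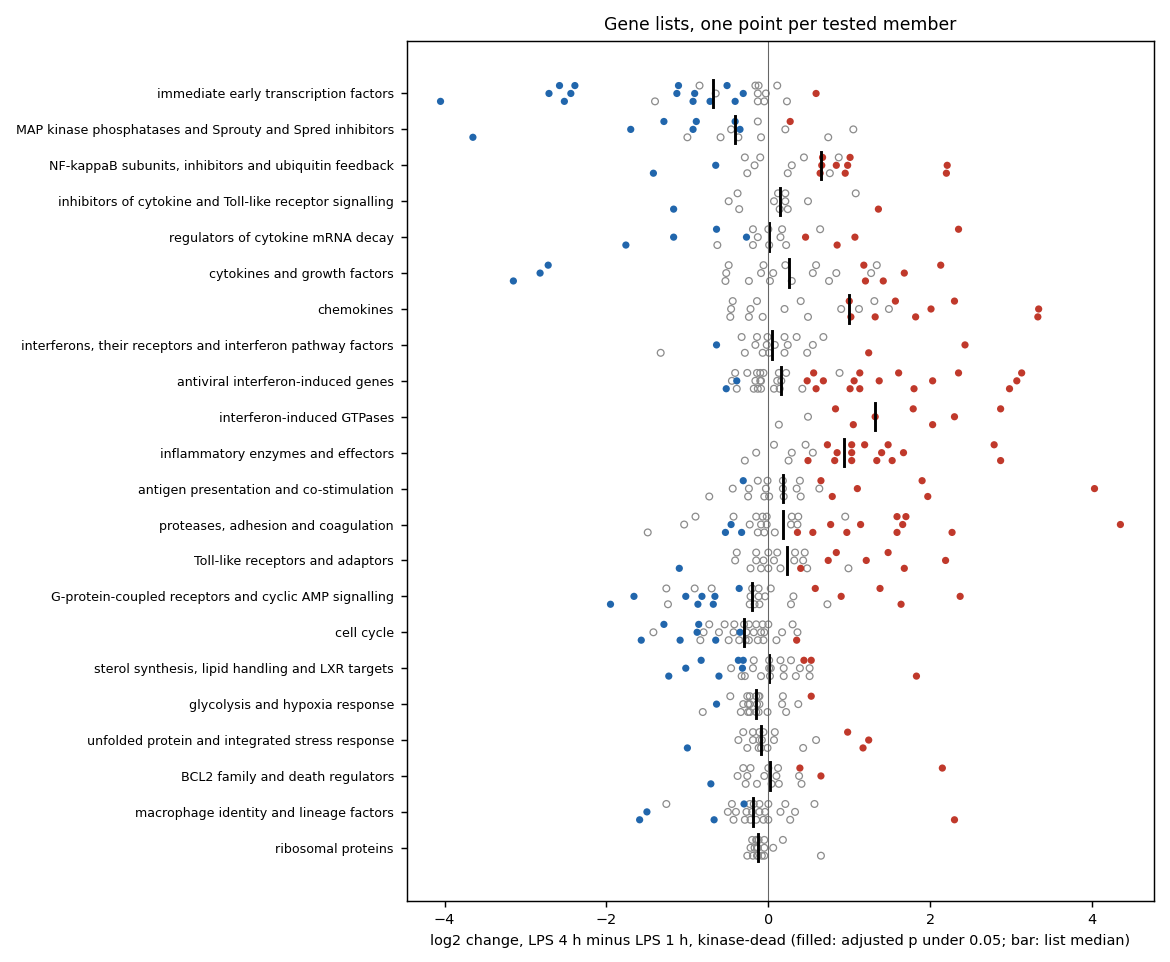
Log2 change from 1 h to 4 h of LPS in kinase-dead macrophages (x axis) for every tested member of 22 gene lists (rows). Filled red and blue points are called higher and lower, open points are not called, and bars are list medians; the bar of the immediate early list is at -0.688 and that of the interferon-induced GTPases at 1.323.

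To ask where the KD change departed from that of WT cells, the change in WT was subtracted from the change in KD; the strains share no arrays. In WT cells 2495 genes (19.3%) were called between 1 h and 4 h, 1038 higher (8.04%) and 1457 lower (11.3%). The strain difference was called for 101 genes (0.782%), in 54 of which the KD change was above the WT change (0.418%) and in 47 below it (0.364%). At an unadjusted p under 0.05 there were 2537 probe sets. Of the 54 genes, 20 were in the late fall class, and of the 47, 12 were late, 11 sustained and 10 rising genes. Only the genes and lists with a called strain difference are described. By probe set, 152 differences were called, and between 40 and 100 when a single LPS array was left out, the lowest being without WT LPS 4 h replicate 1. With a variance prior that does not follow the signal level, a single difference was called (1 probe set).

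Il6 had the lowest difference. In KD it went from 41.4 and 37.9 at 1 h to 106 and 88.6 at 4 h, in WT from 40.6 and 63.2 to 1722 and 1779. The strains overlapped at 1 h and were far apart at 4 h, with a difference between the changes of -3.79 ± 0.50, adjusted p = 0.000948. Il1b was not called in KD and rose in WT from 700.3 and 857 to 2940.5 and 2547, a difference of -1.75 ± 0.26, adjusted p = 0.00276. Zfp703, a zinc-finger corepressor, went from 1116 and 1071 to 449 and 373 in KD, while in WT it held 818 and 1008 and 896 and 919 (-1.41 ± 0.19, adjusted p = 0.00141). Mmp13 (collagenase 3) was sustained in KD at 894 and 917 and 1173 and 1050.0 and went from 810.3 and 639.6 to 2116 and 2089 in WT (-1.25 ± 0.16, adjusted p = 0.000948). Gbp7 rose in both strains, from 496 and 480.2 to 1667 and 1728 in KD and from 311 and 365 to 2595 and 2622 in WT (-1.15 ± 0.17, adjusted p = 0.00276). Pde4b kept more of its rise in WT, with 2395 and 2213 at 1 h and 2452 and 2477 at 4 h (-0.97 ± 0.15, adjusted p = 0.00457). For these 6 genes the difference was called whichever of the 12 arrays was left out.

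Nr4a3, the third orphan nuclear receptor of its family, was at 106 and 155 and 74.3 and 63.6 in KD and at 67.7 and 100.2 and 430.5 and 394 in WT (-3.12 ± 0.57, adjusted p = 0.014), so the strains moved in opposite directions in value. Its call was lost without 6 of the LPS arrays, at adjusted p of 0.0638 to 0.109. Tnfsf9 decayed to 140.4 and 237 in KD but was still at 1150.0 and 1006 in WT after 1676 and 1952 at 1 h (-1.97 ± 0.33, adjusted p = 0.00867), a call lost without 4 of the LPS arrays (0.0517 to 0.0695). Nlrp3 reached 2671 and 2115 in WT from 639.8 and 524 (-1.48 ± 0.29, adjusted p = 0.0234), lost without 6 of them (0.0511 to 0.186). Over all tested genes the strain difference was called lower for 0.364% and higher for 0.418%. Among the antiviral interferon-induced genes the strain difference was called lower for 9 of 39 and higher for 0 in limma (21 and 1 at an unadjusted p under 0.05). These were Ifit1, Ifit2, Oasl1, Oasl2, Ifih1, Xaf1, Rtp4, Parp14 and Dtx3l, with differences from -0.96 for Ifit1 to -1.25 for Oasl1 and -0.58 for Dtx3l, and each lost the call without at least 1 LPS array.

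**Figure D4:**
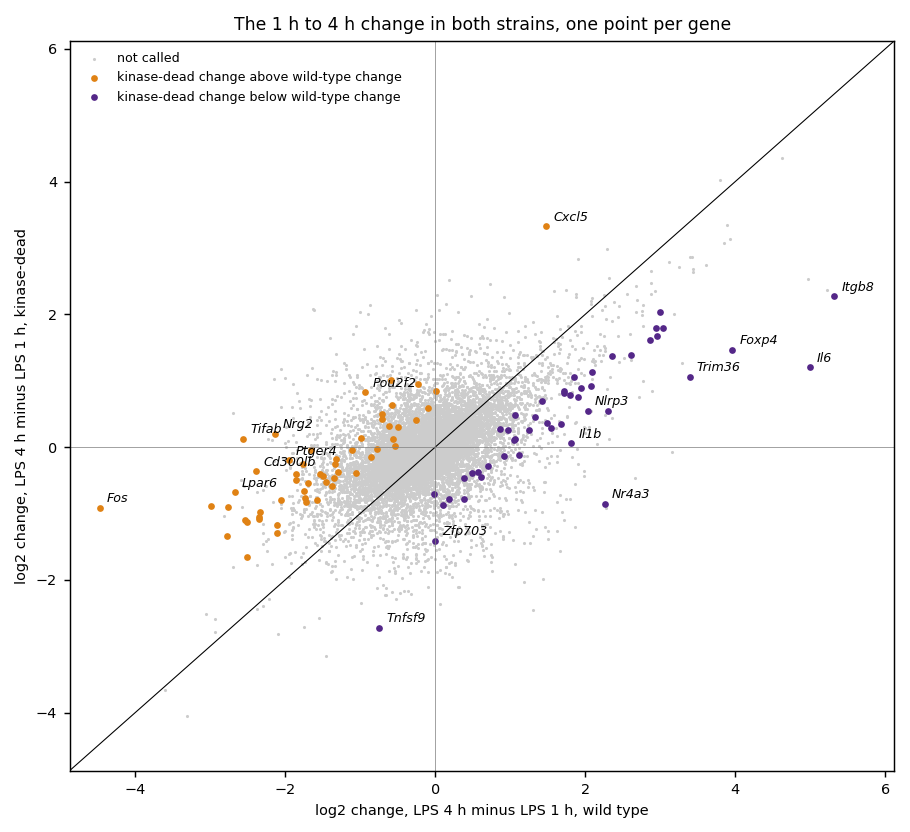
Log2 change from 1 h to 4 h of LPS in wild-type (x axis) and kinase-dead (y axis) macrophages, 1 point per tested gene, with the line of equal change. Orange and purple points are the 54 and 47 genes whose kinase-dead change was called above or below the wild-type change; Fos lies far left and Il6 far right of the line.

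Fos had the highest difference. In KD it fell from 2537 and 2914 at 1 h to 1416 and 1467 at 4 h, in WT from 3230.0 and 3558 to 163 and 136. At 4 h the strains were far apart, and the KD change of -0.91 ± 0.12 was above the WT change of -4.47 ± 0.12 by 3.56 ± 0.17, adjusted p = 8.62e-10. Jun, its AP-1 partner, differed by 1.44 ± 0.12, adjusted p = 3.72e-06, with 2345 and 2406 at 1 h and 634 and 679.9 at 4 h in WT. No strain difference was called for Fosb (-0.74 ± 0.89, adjusted p = 0.879) or Dusp5 (-0.05 ± 0.21, adjusted p = 0.976).

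Several other transcripts fell less in KD than in WT cells, or had no called fall in KD. Ptger4, the EP4 receptor for prostaglandin E2, held 2112 and 2088 and 1839 and 1811 in KD and dropped from 2719 and 3012 to 732 and 741 in WT (1.75 ± 0.13, adjusted p = 5.12e-07). Cd300lb, an activating receptor of myeloid cells, went from 1516 and 1686 to 1237 and 1252 in KD and from 1585 and 1519 to 328 and 262 in WT (2.03 ± 0.15, adjusted p = 7.21e-07). Lpar6 fell to 81.1 and 72.2 in WT from 495 and 526 (1.99 ± 0.19, adjusted p = 1.60e-05). Tifab, an inhibitor of TRAF6 signalling, was at 174 and 173 and 167 and 216 in KD, with overlapping times, and at 121 and 144 and 21.1 and 16.6 in WT (2.69 ± 0.33, adjusted p = 0.000353). The lineage factor Maf was at 2893 and 2655 and 2768 and 2609 in KD and at 2472 and 2444 and 1096 and 1174 in WT (1.07 ± 0.13, adjusted p = 0.000253), and the ERK pathway inhibitor Spry2 at 1004 and 1099 and 339.5 and 382 in WT (1.12 ± 0.17, adjusted p = 0.00395). These differences, and those of Fos and Jun, were likewise called whichever array was left out.

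Cxcl5 was the 1 chemokine of 23 with a called strain difference. On the log2 scale its rise was larger in KD, from 73.2 and 51.2 to 718 and 598, than in WT, from 873 and 688 to 2207 and 2121 (1.85 ± 0.30, adjusted p = 0.00661). In signal units the WT rise was the larger. The WT arrays were above the KD arrays at both times, and the call was lost without KD LPS 4 h replicate 1 (0.0625) or WT LPS 4 h replicate 1 (0.0556). For Cxcl10 the difference was -0.55 ± 0.28, adjusted p = 0.584.

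**Figure D5:**
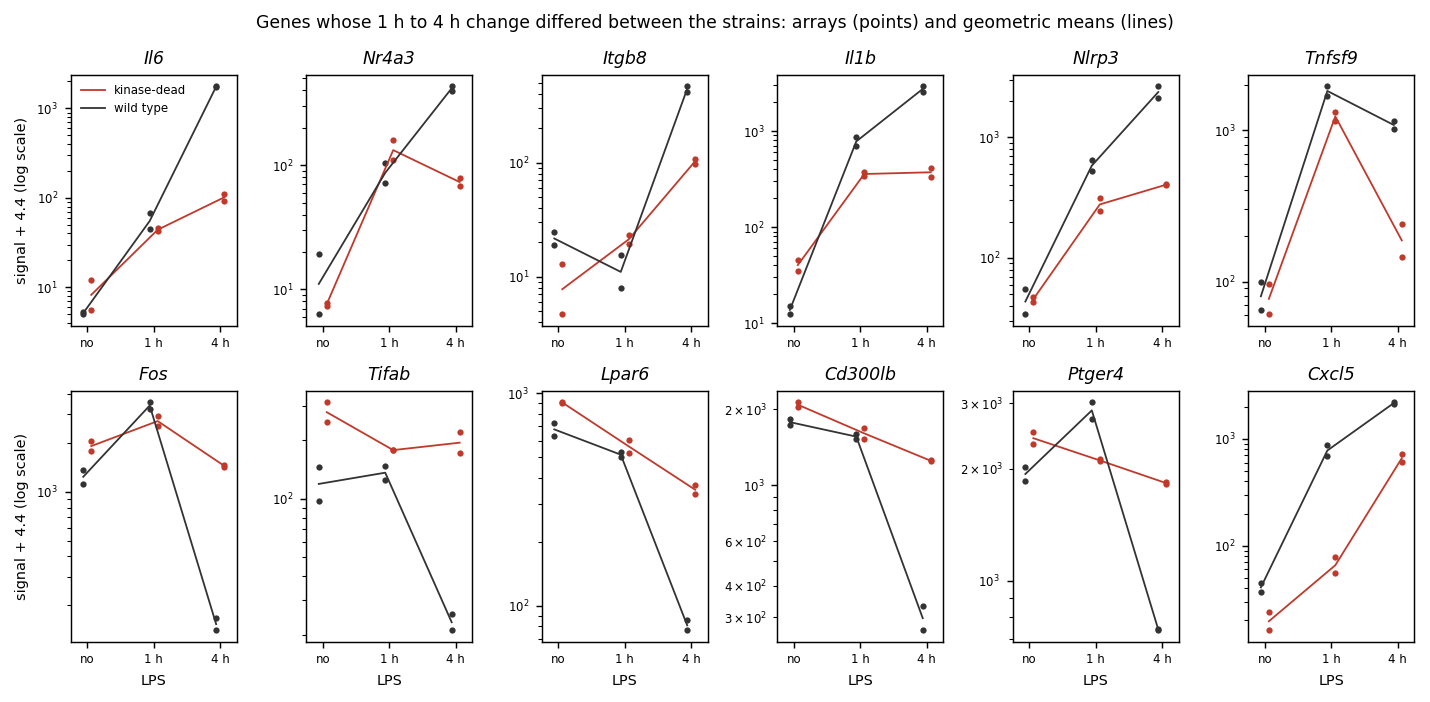
Signal plus 4.4 on log scales (y axes) without LPS, at 1 h and at 4 h of LPS (x axes) for 12 genes with a called strain difference. Red points are kinase-dead arrays and black points wild-type arrays, with lines through geometric means; in Il6 and Fos the strains lie close at 1 h and separate at 4 h, whereas in Cxcl5 they approach each other.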

How the data were processed

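RNA from 12 mouse bone marrow macrophage cultures was measured on 1-colour Affymetrix arrays. Per the labels' protocols, RNA was prepared with RNeasy and amplified with the NuGEN Ovation kit. The values are the authors' deposited signal intensities, for which the submitters' processing notes name MAS5, and its version is not given in the sources used here. The deposited table covers 45101 probe sets, linear and uncentred, with a 2% trimmed mean of 150 on each array. How array scaling acts on a global shift in RNA cannot be seen from these values.

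Signals were taken as log2(signal + 4.4), with the pseudocount at the 20th percentile of the table, which understates changes of dim genes. Probe sets above the array median on at least 2 arrays were tested (27931, after 64 control probe sets were left out). limma 3.58.1 in R 4.3.3 fitted 6 group means over all 12 arrays with a trended variance prior, and a change was called at a Benjamini-Hochberg adjusted p under 0.05, 2-sided. Of all probe sets 34958 had 1 gene symbol, 932 several and 9211 none. Each gene was given by its brightest probe set, identifiers without cross-hybridisation suffixes first. The number of arrays limits the precision. The procedure was tested on simulated data.

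The members and gene lists were chosen with earlier results of these data known. Genes were named by rank (the 15 highest and 15 lowest changes, up to 4 called members of a list, 6 to 10 genes of a time course, and the 10 highest and 10 lowest strain differences), and other list members were picked after their values were seen. Promoter windows are RefSeq's, and genes with no window are left out of the shares. Alternatives were other pseudocounts, filters, normalization, variance priors, subsets of arrays, a replicate block and each array left out.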

Additional observations from a re-analysis of the deposited data

Results flagged for a closer look

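The change from 1 h to 4 h of LPS differed between the strains for 50 named genes, by limma's test of the difference itself. This difference was called for 101 of all 12914 tested genes (0.782%). The 50 genes were named by the rules on extremes, time courses and lists. The extremes include the highest and lowest strain differences, so part of the 50 were named because of this same difference. The 50 are therefore not an independently chosen set, and their number is not a rate. Values are the KD log2 change minus the WT log2 change, each with 2 arrays a group, and the adjusted p of each was under 0.05. In 28 genes the KD change lay below the WT change and in 22 above it. With a variance prior that does not follow the signal level, only 1 probe set had a called difference. Almost all of these calls therefore depend on the prior that follows it.

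For 16 of the 50 the difference was called in all 12 fits with 1 array left out. Among these, the KD change was below the WT change, with values of -3.79 for Il6, -1.75 for Il1b, -1.41 for Zfp703, -1.25 for Mmp13, -1.15 for Gbp7 and -0.97 for Pde4b. It was above the WT change, with values of 3.56 for Fos, 2.69 for Tifab, 2.10 for C130050O18Rik, 2.03 for Cd300lb, 1.99 for Lpar6, 1.76 for Pou2f2, 1.75 for Ptger4, 1.44 for Jun, 1.12 for Spry2 and 1.07 for Maf.

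The other genes lost the call in at least 1 of the 12 fits. Of these, the values below 0 were -3.12 for Nr4a3, -3.05 for Itgb8, -2.49 for Foxp4, -2.33 for Trim36, -1.97 for Tnfsf9, -1.75 for Lif, -1.48 for Nlrp3, -1.29 for Ptges, -1.25 for Oasl1, -1.24 for Ccrl2, -1.23 for Ifit2, -1.12 for Rab11fip1, -1.06 for Oasl2, -1.06 for Rtp4, -0.99 for Ifih1, -0.96 for Ifit1, -0.96 for Parp14, -0.95 for Gadd45b, -0.88 for Xaf1, -0.69 for Bcl2l11, -0.59 for Spred1 and -0.58 for Dtx3l. The values above 0 were 2.33 for Nrg2, 1.86 for Susd3, 1.85 for Cxcl5, 1.09 for P2ry6, 0.97 for Tmem86a, 0.94 for Inpp5d, 0.92 for Dusp6, 0.89 for Dhcr7, 0.86 for Rgs2, 0.82 for Ccnd1, 0.70 for Atf3 and 0.70 for Tlr4. Itgb8, Nrg2, Dtx3l and Tlr4 kept the call in only 3 of the 12 fits and Lif in 4. Ifit2 and P2ry6 kept it in 11. Itgb8 was near the pseudocount in WT cells at 1 h, with signals of 3.5 and 11. No stromal marker had a called strain difference in limma (3 of 12 were higher at an unadjusted p under 0.05). The part of other cell types in these differences was not tested.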

How the results depend on the processing

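The count of 2354 probe sets called from 1 h to 4 h in KD, and of 152 for the strain difference, dropped to 960 and 1 with a variance prior without a trend. With 1 array left out they ranged from 1218 to 2633 and from 40 to 181. The first count was 1489 and 1301 without KD LPS 1 h replicates 1 and 2, and 1218 and 1438 without the 4 h replicates. The strain difference was at 60, 67, 45 and 75 without these arrays, at 94 and 100 without WT LPS 1 h replicates 1 and 2, and at 40 and 73 without WT LPS 4 h replicates 1 and 2. Under the other alternatives both counts stayed within 1.5 times.

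Class sizes without the trend were 41 transient, 28 rising, 174 late, 72 sustained, 114 late fall, 37 dip and 2 continued fall, and at an adjusted p under 0.01 they were 58, 48, 205, 107, 154, 60 and 4. Continued fall had 24 genes with the filter at the 75th percentile and 20 after quantile normalization. With 1 array left out, class sizes were 54 to 123, 44 to 88, 173 to 320, 112 to 169, 174 to 321, 72 to 168 and 2 to 13 in the same order.

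Of 116 named genes called in KD, 79 kept the call in all 12 fits with 1 array left out, and of 94 other called list members 47 did. Signs turned only for genes without a call. With 1 array left out, the changes that turned ranged from -0.37 to 0.24 for Tpsb2, -0.10 to 0.22 for Il1b, -0.23 to 0.07 for Gm6377, -0.03 to 0.24 for Grb14, -0.06 to 0.31 for Tifab and -0.30 to 0.70 for Nrg2, and that of Tpsb2 was 0.04 after quantile normalization. The cause was not tested.

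Replicate numbers did not pair the arrays: over 15 pairs of groups, same-numbered deviations correlated at -0.0682 to 0.0401. A replicate block gave 2271 and 136 calls.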
